A study of Mus musculus with 13 samples.

Results

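The T cell receptor genes lie in 3 loci of the mouse genome, and their contact with pericentromeric satellite repeats was read from sat4C calls in mm9. The loci were taken as 3 windows: Chromosome 14 from 52900000 to 54900000 for *Tcra* with the nested *Tcrd*, Chromosome 6 from 40800000 to 41600000 for *Tcrb*, and Chromosome 13 from 19100000 to 19500000 for *Tcrg*. A fragment end belonged to a locus when its start lay in the window. These windows held 376 of the 399232 fragment ends with a call, of which 184 were in *Tcra*, 121 in *Tcrb* and 71 in *Tcrg*, and the 1 Mb flanks on both sides held another 961.

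T cells recognize antigen through a receptor made of an alpha and a beta chain, or of a gamma and a delta chain. Each chain is assembled in the developing thymocyte from separate variable (V), joining (J) and, for beta and delta, diversity (D) segments. The RAG recombinase cuts beside the segments, which are then joined to sit upstream of a constant (C) segment. Outside the lymphoid lineage the segments stay in their germline order. *Tcrd* lies between the V and J segments of *Tcra*, so that joining a *Trav* to a *Traj* segment removes it from the chromosome. Pericentromeric satellite repeats cluster into chromocenters, which are regarded as a repressive part of the nucleus.

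Sat4C captures genomic DNA ligated to major satellite repeats, and a pericentromere-associated domain (PAD) is a stretch of consecutive fragment ends called as frequently captured, while a non-PAD is a stretch called as rarely captured. Thymus was taken from C57BL/6 mice, all adult males (3 replicates, each read on 2 instruments). The embryonic stem cells (ESCs, 3 replicates) were the line IB10 (129/ola), the neural precursor cells (NPCs, 2 replicates) were derived from those ESCs, and the astrocytes (ACs, 2 replicates) from those NPCs. No group carried a treatment. The cultured cells were read on only 1 of the 2 instruments used for thymus. Strain, tissue, culture and instrument therefore cannot be told apart wherever thymus differs from the cultured cells. Thymus tissue holds more than T lineage cells, and the calls carry no expression, so the labels could not be checked against marker genes. Since joining segments removes sequence in thymocytes, copy number and contact cannot be told apart inside the loci in thymus. Copy number was not measured here. The file gives 1 consensus call per end and cell type, so the depth of the reads is not known here, the values have no replicate error, and all contrasts below are descriptions without a test.

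The sequences that mark the results lie at the borders between PADs and non-PADs inside the loci. Each is read 5′ to 3′ from NCBIM37 (mm9), starting at the MfeI site (capitals) through which the fragment was ligated, with at most 60 bases shown. The border of thymus in *Tcrb* fell between the ends of 1 MfeI site, whose leftward end was called PAD and whose rightward end non-PAD:
Tcrb thymus border, PAD side, chr6:40959914-40959973, minus strand: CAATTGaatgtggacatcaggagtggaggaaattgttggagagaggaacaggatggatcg
Tcrb thymus border, non-PAD side, chr6:40959968-40960027, plus strand: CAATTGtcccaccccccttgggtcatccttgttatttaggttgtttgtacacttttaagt

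The border of ESCs in *Tcra* and the inner border of NPCs in *Tcrg* are marked by the following ends, which in *Tcrg* again leave 1 MfeI site in both directions and of which the last runs to its NlaIII site (capitals at the 3′ end):
Tcra ESC border, non-PAD side, chr14:54665892-54665951, plus strand: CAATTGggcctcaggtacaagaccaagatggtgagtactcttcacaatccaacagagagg
Tcra ESC border, PAD side, chr14:54673458-54673517, minus strand: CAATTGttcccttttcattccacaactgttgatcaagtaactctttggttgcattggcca
Tcrg NPC border, non-PAD side, chr13:19207778-19207837, minus strand: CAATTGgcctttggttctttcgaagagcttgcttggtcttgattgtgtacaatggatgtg
Tcrg NPC border, PAD side, chr13:19207832-19207871, plus strand: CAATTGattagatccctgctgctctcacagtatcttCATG

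RAG cuts at recombination signal sequences, which follow a V segment and precede a J segment and consist of a heptamer, a spacer and a nonamer. Below are the signals of the V segments on both sides of the *Tcrb* border in thymus and of the *Tcra* border in ESCs, and that of the first *Traj* segment inside the PAD of NPCs, with heptamer and nonamer in capitals and the spacer in lower case, read from the heptamer outward:
Trbv1 signal, chr6:40841885-40841923, plus strand: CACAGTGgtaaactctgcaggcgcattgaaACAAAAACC
Trbv2 signal, chr6:40997995-40998033, plus strand: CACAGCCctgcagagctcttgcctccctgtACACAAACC
Trdv2-2 signal, chr14:54581278-54581316, plus strand: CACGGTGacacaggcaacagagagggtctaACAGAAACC
Trdv4 signal, chr14:54695191-54695229, plus strand: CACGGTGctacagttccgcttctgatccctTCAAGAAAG
Traj56 signal, chr14:54778910-54778937, minus strand: CACAATGacacgggactctACAAAAACT

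The signal of *Trbv1* matched the consensus heptamer CACAGTG at all 7 bases and the consensus nonamer ACAAAAACC at all 9, and that of *Trbv2* matched 5 of 7 and 8 of 9. The heptamers of *Trdv2-2* and *Trdv4* matched at 6 of 7 bases, and their nonamers at 8 and 5 of 9, respectively. For *Traj56*, the matches were 6 of 7 and 8 of 9. Each signal was the best match among several starts with CAC and several spacer lengths beside the segment, which favors high counts. The exact heptamer CACAGTG stood within 20 bases after 93 of 144 V segments (64.6%; 66.0% on either strand) and within 20 bases before 20 of 79 J segments (25.3%; 34.2% on either strand). It followed the 3′ end of 1 of 2990 protein-coding genes on the same chromosomes (0.0334%; 0.134% on either strand). A match is a description of the letters and was not compared with cutting.

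*Tcrb* and *Tcrg* resembled each other, while *Tcra* with *Tcrd* differed from both. *Tcrb* and *Tcrg* lay entirely in PADs in ESCs and ACs, while in thymus *Tcrg* was wholly and *Tcrb* mostly non-PAD. In contrast, *Tcra* was non-PAD in thymus and ACs and held a PAD over its D, J and C segments in ESCs. In *Tcra*, 25.0% of the fragment ends (46 of 184) were in a PAD in ESCs, 6.52% (12) in NPCs, and 0 in ACs and thymus. Counted in base pairs, the shares of *Tcra* were 11.5% in ESCs and 3.16% in NPCs. In *Tcrb*, all 121 ends were in PADs in ESCs, NPCs and ACs, and 19.0% (23) in thymus. In *Tcrg*, all 71 ends were in PADs in ESCs and ACs, 73.2% (52) in NPCs, and 0 in thymus. Over all ends of the file, 52.2% were in PADs in thymus, 54.5% in ESCs, 68.9% in NPCs and 54.0% in ACs.

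**Figure D1:**
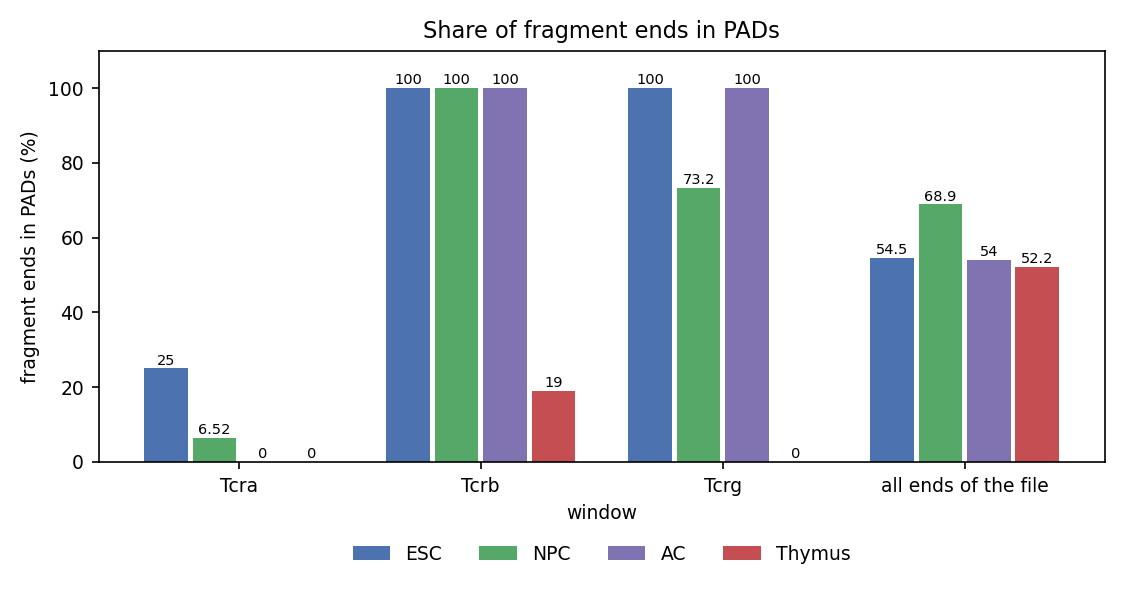
Percentage of fragment ends in PADs (y axis) in the *Tcra*, *Tcrb* and *Tcrg* windows and over all ends of the file, 1 bar per cell type, without error bars since each cell type has 1 consensus call per end. Thymus stands at 0% in *Tcra* and *Tcrg* and at 19.0% in *Tcrb*, and the 3 cultured cell types stand at 100% in *Tcrb*.

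Taken by single cell type, most of these values are not rare in a genome called in long domains. Among 1297 windows of 2000 kb, 23.5% had no PAD end in thymus and 16.8% had none in ACs, and the middle 50% of the windows ranged from 2.95% to 89.8% of their ends in thymus. The share of *Tcra* in NPCs (6.52%) was less common. In NPCs, the middle 50% of these windows began at 46.5%, and 6.63% of the windows had no PAD end. Among 3209 windows of 800 kb, 28.2% were wholly PAD in ESCs, 43.3% in NPCs and 30.7% in ACs. Among 6385 windows of 400 kb, 42.3% had no PAD end in thymus. In thymus, 50.9% of the ends of Chromosome 14, 52.4% of Chromosome 6 and 48.2% of Chromosome 13 were in PADs. The chromosomes differed more from the whole file in other cell types, since 46.1% of the ends of Chromosome 14 were in PADs in ACs, and 79.3% of Chromosome 6 and 79.5% of Chromosome 13 in NPCs.

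The calls of the 4 cell types combined in only a few ways. In *Tcra*, 138 ends (75.0%) were non-PAD in all 4 cell types, a combination held by 12.7% of all ends, 34 ends (18.5%) were PAD in ESCs only, held by 1.71% of all ends, and 12 ends (6.52%) were PAD in ESCs and NPCs only, held by 6.61% of all ends. In *Tcrb*, 98 ends (81.0%) were PAD in ESCs, NPCs and ACs and non-PAD in thymus, a combination of 8.12% of all ends, and 23 ends (19.0%) were PAD in all 4 cell types, a combination of 29.3% of all ends. In *Tcrg*, 52 ends (73.2%) had the former combination, and 19 ends (26.8%) were PAD in ESCs and ACs only, which 0.893% of all ends were. No end of the 3 loci was PAD in thymus and non-PAD in a cultured cell type. However, only 23 ends were PAD in thymus, all in 1 PAD of *Tcrb*. Over all ends, 52.2% were PAD in thymus but only 29.3% in all 4 cell types, so the combination absent here was common elsewhere.

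**Figure D2:**
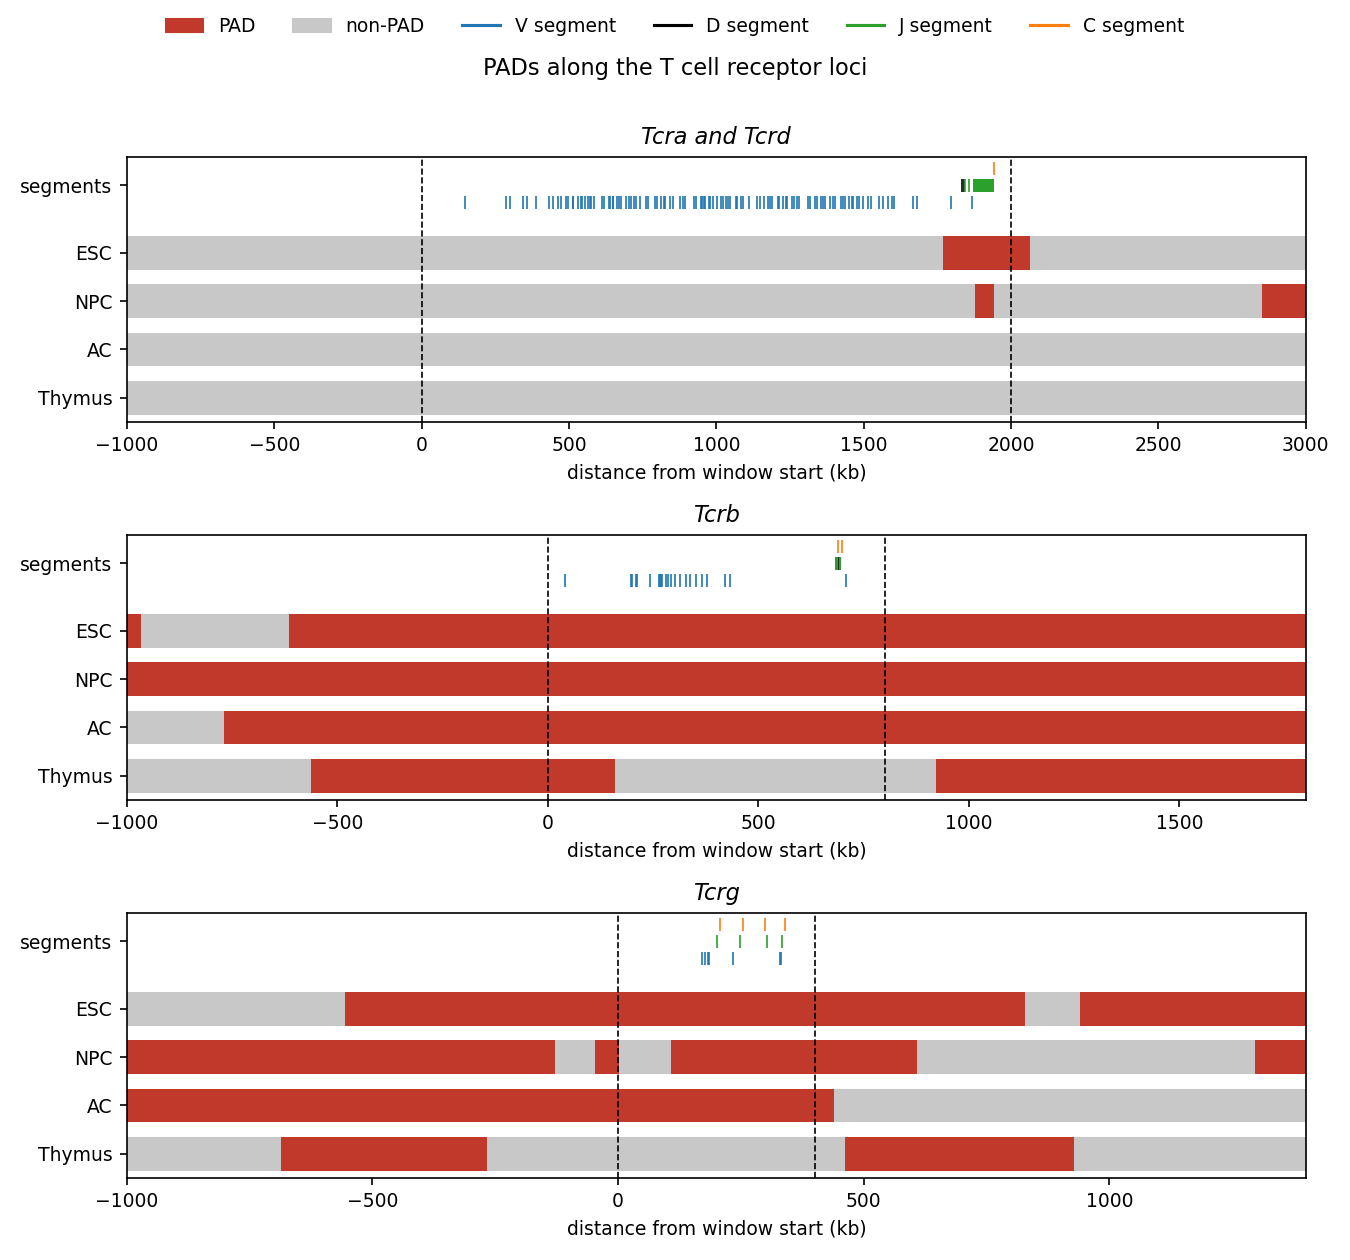
PADs (red) and non-PADs (gray) along the 3 loci and their 1 Mb flanks in the 4 cell types, with the x axis in kb from the start of each window, dashed lines at the window limits and ticks at the V, D, J and C segments. In thymus, a non-PAD covers all segments of *Tcra* and *Tcrg* and all segments of *Tcrb* but the isolated first V segment.

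*Tcrb* encodes the beta chain, the chain that pairs with the pre-T alpha chain before *Tcra* is rearranged. The annotation placed 41 segments over 667.1 kb between *Trbv1* (from 40841295) and the inverted *Trbv31* (to 41508370), with 98 fragment ends between them. In ESCs, the locus lay in a PAD of 2833 kb (40185171 to 43017988, 470 ends). In NPCs, it lay in a PAD of 7174 kb (36677858 to 43852165, 1087 ends), and in ACs in a PAD of 3176 kb (40029896 to 43206091, 528 ends). All 41 segments were thus in PADs in the 3 cultured cell types, far from the nearest border on the left, which was 656.1 kb from *Trbv1* in ESCs and 811.4 kb from it in ACs.

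In thymus, the same sequence was divided into 3 domains. A PAD of 723.5 kb (40236319 to 40959778, 145 ends) ended between *Trbv1* and *Trbv2*. A non-PAD of 761.9 kb (40959779 to 41721723, 120 ends) followed and held 40 of the 41 segments, and a PAD of 1592 kb began at 41721724. *Trbv1*, the V segment set apart upstream of the others, lay 117.9 kb inside the first PAD, and *Trbv2* lay 37.8 kb inside the non-PAD. The border between them rested on neighboring ends whose starts were 380 bp apart, on the 2 sides of the MfeI site shown above. The paper states that differences between cells limit how exactly PAD borders can be defined. A short step between ends, here or at the other borders, therefore does not show how exactly a border is placed.

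The non-PAD held the other 22 V segments, both D segments (*Trbd1* and *Trbd2*), all 14 J segments from *Trbj1-1* to *Trbj2-7* and both C segments (*Trbc1* and *Trbc2*). Among the V segments was *Trbv31*, which lies 3′ of *Trbc2* in inverted orientation and recombines by inversion. Its size was ordinary: 371 of the 838 thymus non-PADs were as large or larger, and their median was 570.6 kb. Runs of ends with PAD calls in ESCs, NPCs and ACs and non-PAD calls in thymus occurred 844 times in the genome with a median of 22 ends, and the run in *Tcrb* spanned 120 ends (761.7 kb), a length that 55 of these runs (6.52%) reached.

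Other genes are interspersed with the *Tcrb* segments and took the call of the domain around them. *Moxd2*, a monooxygenase-like gene upstream of *Trbv1*, and *Prss58*, *1700074P13Rik*, *Gm4744*, *1810009J06Rik* and *Gm2663* between *Trbv1* and the border were in PADs in all 4 cell types. The non-PAD of thymus held 14 protein-coding genes besides the segments. *2210010C04Rik* lay between the border and *Trbv2*. The trypsinogens and related proteases *Try4*, *Try5*, *Try10*, *Prss3*, *Prss1* and *Prss2*, which encode pancreatic digestive enzymes, lay with *Gm5771* and *Gm10334* between *Trbv30* and *Trbd1*. *Ephb6*, an ephrin receptor without kinase activity, and *Trpv6*, an epithelial calcium channel, followed *Trbv31*, and *Trpv5*, *Llcfc1* and *Kel*, the gene of the Kell blood group protein, lay beyond the window. All 14 were in PADs in ESCs, NPCs and ACs, so the thymus non-PAD was not limited to receptor segments.

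The right border of this non-PAD (41721723) lay 213.4 kb beyond *Trbv31*, at the olfactory receptor gene *Olfr459*, where neighboring ends were 44 bp apart. All 7 olfactory receptor genes and all 8 bitter taste receptor genes (*Tas2r*) of the 1 Mb flanks were in PADs in all 4 cell types. In the left flank, 61.9% of the ends were in PADs in thymus, 68.0% in ESCs, 100% in NPCs and 78.2% in ACs. In the right flank, 86.2% were in PADs in thymus and 100% in the 3 cultured cell types.

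*Tcrg* encodes the gamma chain and is arranged as repeated clusters of V, J and C segments rather than as 1 array. The annotation placed 15 segments over 174.3 kb, from *Trgv7* (19269911) to the constant segment annotated as *Tcrg-C* (to 19444212), with 27 fragment ends between them. In ESCs, they lay in a PAD of 1383 kb (18544016 to 19927426, 240 ends), and in ACs in a PAD of 5404 kb (14135178 to 19539504, 888 ends). In thymus, they lay in a non-PAD of 729.4 kb (18833481 to 19562890, 123 ends), whose borders were 436.4 kb upstream of *Trgv7* and 118.7 kb downstream of *Tcrg-C*. Among thymus non-PADs, 378 of 838 were as large or larger.

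All 15 segments were in PADs in ESCs, NPCs and ACs and none was in thymus: 7 V segments from *Trgv7* to *Trgv1*, 4 J segments from *Trgj1* to *Trgj4*, and the C segments *Trgc1*, *Trgc3*, *Trgc2* and *Tcrg-C*. The NPC calls were the only ones with borders inside the window. There, a PAD of 48.4 kb (6 ends, of which 1 was in the window) was followed by a non-PAD of 106.8 kb (19100982 to 19207795, 19 ends), and a PAD of 499.9 kb (19207796 to 19707725, 84 ends) then held the segments. The inner border lay 62.1 kb upstream of *Trgv7* and rested on ends whose starts were 73 bp apart, the pair of *Tcrg* ends shown above.

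The non-PAD of NPCs lay within *Amph*, the gene of the synaptic protein amphiphysin, which crosses the start of the window (19040240 to 19242782). Judged by its midpoint, *Amph* was in a PAD in ESCs and ACs and in a non-PAD in NPCs and thymus. *Stard3nl*, the gene of a late endosomal membrane protein downstream of *Tcrg-C*, shared the calls of the segments: PAD in ESCs, NPCs and ACs and non-PAD in thymus. Upstream, *Vps41* did the same. Beyond the segments the calls differed from those at the segments: *Sfrp4*, *Nme8*, *Gpr141b* and *Gpr141* were in PADs in ESCs and thymus and in non-PADs in NPCs and ACs, and *Epdr1* was in PADs in ESCs, NPCs and thymus. In the right flank, 46.0% of the ends were in PADs in thymus, 85.0% in ESCs, 24.5% in NPCs and 1.0% in ACs, and in the left flank 49.2%, 52.5%, 89.3% and 100%, respectively. The run of ends with PAD calls in the cultured cells and non-PAD calls in thymus spanned 53 ends (331.6 kb) at the segments, a length that 204 of the 844 such runs (24.2%) reached.

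*Tcra* and *Tcrd* share the longest of the 3 loci. The annotation placed 178 segments over 1795 kb between *Trav1* (53047603) and *Trac* (to 54842772): 114 V, 2 D, 61 J and 1 C segment. *Trdc*, the constant segment of the delta chain, was not placed. In thymus, all 178 segments lay in 1 non-PAD of 4961 kb (51882244 to 56843661, 522 ends, 128 other protein-coding genes), and 71 of 838 thymus non-PADs were as large or larger. In ACs, all 178 lay in a non-PAD of 6006 kb (50702122 to 56708432, 644 ends). The left flank had 0 PAD ends in all 4 cell types.

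In ESCs, a PAD of 293.9 kb (54669640 to 54963532, 57 ends) lay over the 3′ part of the locus and separated most V segments from the rest. Its left border fell between *Trdv2-2*, 88.4 kb to the left, and *Trdv4*, 25.0 kb to the right, in a step of 7495 bp between neighboring ends. To the left of it, 112 of 114 V segments were non-PAD. Inside it were *Trdv4* and the inverted *Trdv5*, the delta D segments *Trdd1* and *Trdd2*, all 61 J segments (*Trdj1*, *Trdj2* and the *Traj* array from *Traj61* to *Traj1*) and *Trac*. The same PAD held *Dad1*, a subunit of oligosaccharyltransferase, *Abhd4*, a lipid hydrolase, and *Olfr49*, the only 3 protein-coding genes in it besides segments, and it ended 120.8 kb beyond *Trac*. It was of less than median size, with 841 of 1364 ESC PADs as large or larger and a median of 475.7 kb.

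In NPCs, a smaller PAD of 63.2 kb (54778282 to 54841477, 12 ends) lay within the span of the ESC PAD. By midpoint it held the 54 J segments from *Traj56* to *Traj1* and no other protein-coding gene. Of these, 47 (*Traj56* to *Traj8*) lay between its outermost PAD ends, which are 51.97 kb apart, and 7 (*Traj7* to *Traj1*) lay past the last PAD end and took their call only from the midway border. In contrast, *Trdv4*, *Trdv5*, *Trdd1*, *Trdd2*, *Trdj1*, *Trdj2* and the first *Traj* segments to *Traj57* were non-PAD. The left border rested on ends 436 bp apart, with *Traj57* 0.037 kb to the left and *Traj56* 0.657 kb to the right. Of these ends, the non-PAD one has only 18 bases and the PAD one consists largely of repeated ca in its outermost 60 bases. The closeness of the ends therefore does not show how exactly the border is placed. The right border rested on more distant ends. It was set midway in a step of 22011 bp that contains *Trac* and the 7 J segments from *Traj7* to *Traj1*. *Trac* thus crossed the border and was counted as non-PAD by its midpoint and as PAD by its start. Among NPC PADs, 1074 of 1125 were as large or larger. The PAD lay in the sequence between non-PADs of 8186 kb (1065 ends) and 909.6 kb (118 ends).

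**Figure D3:**
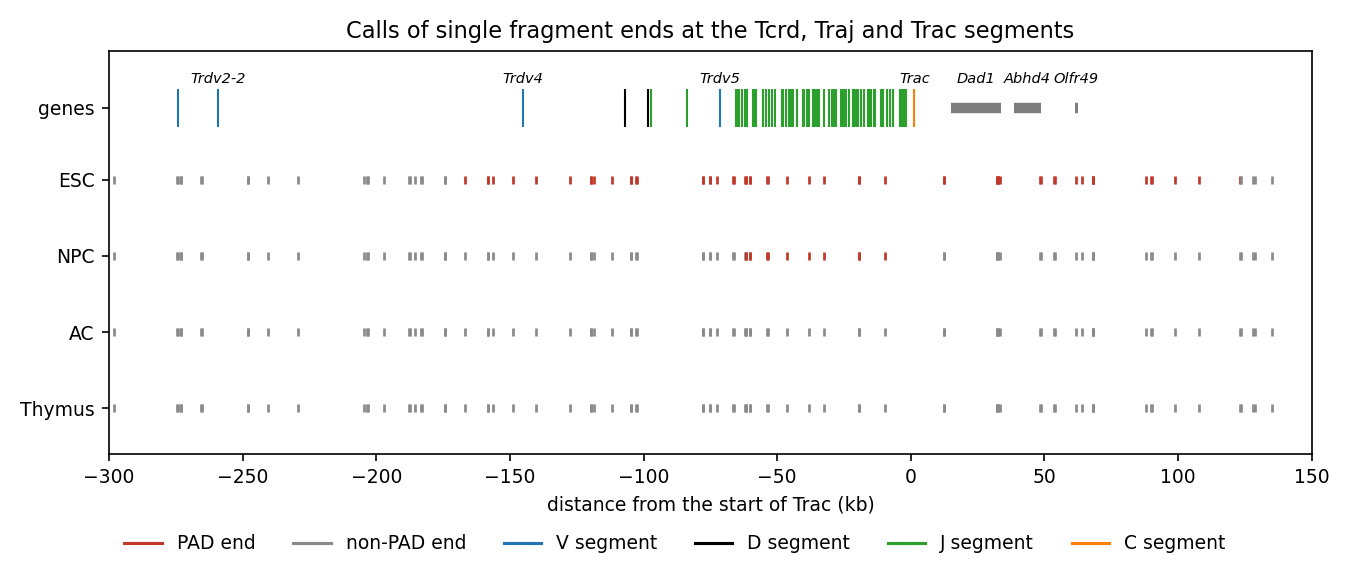
Calls of single fragment ends (ticks, red for PAD and gray for non-PAD) at the 3′ end of *Tcra*, with the x axis in kb from the start of *Trac* and the segments and flanking genes above. The ESC PAD starts between *Trdv2-2* and *Trdv4* and passes *Olfr49*, the NPC PAD has 12 ends, from *Traj56* on, and ACs and thymus have no PAD end here.

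The genes that are not receptor segments in the *Tcra* window had no PAD call in NPCs, ACs and thymus. *Mettl3*, the RNA methyltransferase, *Sall2*, a zinc finger transcription factor, and 7 olfactory receptor genes (*Olfr1507* to *Olfr1513*) around *Trav1* were non-PAD in all 4 cell types, unlike the olfactory receptor genes beside *Tcrb*. *Rps19-ps1*, *Rps19-ps2* and *RP24-334B8.1*, which the annotation places among the V segments as protein-coding, were also non-PAD in all 4. However, *Rps19-ps1* and *Rps19-ps2* lay 80537 and 99214 bp from the nearest end, inside long steps without an end. Their calls came from the ends beside these steps, and their own status was not measured. *Dad1* and *Abhd4* were in a PAD in ESCs only. In the right flank, 9.32% of the ends were in PADs in ESCs and 9.32% in NPCs. These were different stretches, the end of the ESC PAD next to *Olfr49* and the start of an NPC PAD at 55751119, which held *Dhrs2*.

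Counted over the 3 loci, 1 of 234 segments (*Trbv1*) was in a PAD in thymus, against 122 in ESCs, 110 in NPCs and 56 in ACs. Of all 37207 annotated genes, 30.5% were in PADs by midpoint in thymus, 48.4% in ESCs, 67.4% in NPCs and 38.5% in ACs. The segments of a locus share their fragment ends and domains, so they are not independent observations. Of 144 V segments, 1 was in a PAD in thymus, 32 in ESCs and 30 each in NPCs and ACs. Among those counted as non-PAD, 25 and 20 *Tcra* V segments lay inside steps of 246.0 kb and 222.5 kb without an end. They took their call from the ends beside these steps. Of 79 J segments, 0 were in PADs in thymus, 18 in ACs, 72 in NPCs (7 of them by the midway border in *Tcra*) and 79 in ESCs. All 7 C segments were in PADs in ESCs, 6 in NPCs and ACs, and 0 in thymus. The 4 D segments were all in PADs in ESCs, 2 in NPCs and ACs (those of *Tcrb*), and 0 in thymus.

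The precision of these positions differed between the loci. *Tcra* had 92.0 listed ends per Mb, *Tcrb* 151.2 and *Tcrg* 177.5, against 154.9 over the whole file. Of 898 possible ends at MfeI sites of the *Tcra* window, 46.4% had outermost 30 bases that occurred at no other possible end, against 68.5% of 356 in *Tcrb*, 75.0% of 180 in *Tcrg* and 81.5% over the genome. Of the repeated ends of *Tcra*, 1 of 481 was listed, while 42.7% of its single-copy ends were listed, against 48.6% over the genome. The GC content of the windows was 41.6% in *Tcra*, 40.0% in *Tcrb* and 40.6% in *Tcrg*, each within 1.5 percentage points of its chromosome.

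The V segments of *Tcra* were called from few ends. The largest steps without an end were 246.0 kb (53423463 to 53669430) and 222.5 kb (53753077 to 53975595), and 25 and 20 V segments lay inside them. The nearest end was a median of 10441.5 bp and up to 121289 bp from a *Tcra* V segment, and 43 of 114 were more than 20 kb from any end. In *Tcrb* and *Tcrg* no segment was that far from an end, with medians for V segments of 2951 and 1096 bp. The ends on both sides of these steps were non-PAD in all 4 cell types, and the status of the sequence between them was not measured.

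**Figure D4:**
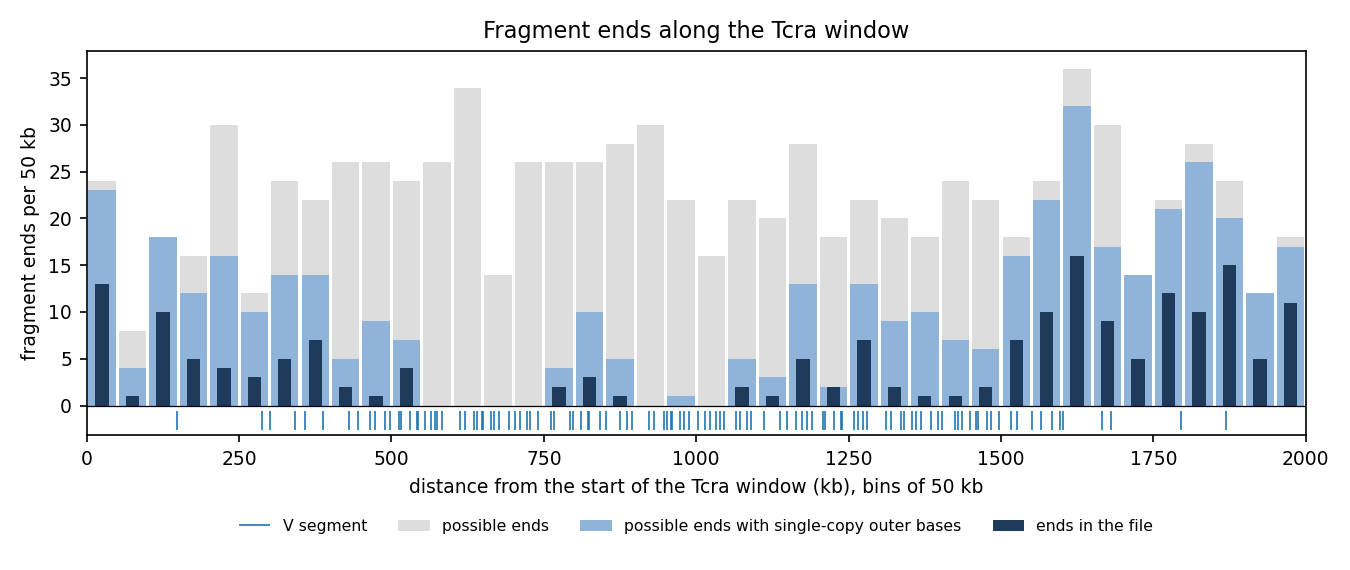
Fragment ends per 50 kb along the *Tcra* window (x axis in kb from its start): possible ends at MfeI sites (gray), those with single-copy outermost bases (light blue) and ends listed in the file (dark blue), with ticks at the V segments. No end is listed in 7 of the bins between 550 and 1050 kb, where V segments are dense.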

How the data were processed

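Sat4C was measured in thymus, ESCs, NPCs and ACs. The authors mapped reads to mm9 fragment ends, leaving out the Y chromosome, fitted an HSMM to each replicate and combined the replicates by majority vote, with pooled reads for ties. For the aligner, no name was given in the sources used here. The deposited calls are the words PAD or nPAD, with 0 columns per replicate. Reads were not analysed here.

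Ends with equal calls were joined into domains, with borders midway between neighboring ends (the domain builder was tested on simulated calls). Genes came from GENCODE vM1 and were placed by midpoint. Segments were those with a receptor biotype in GENCODE vM1 or in the RefSeq table of GRCm38.p6, which named 227 of 234. Sequences came from NCBIM37. The named genes were all C and D segments, the outermost V and J segments, those beside borders, and the other protein-coding genes. Python 3.11.15, numpy 2.4.6, pandas 2.3.3, scipy 1.17.1 and matplotlib 3.10.9 were used. Members and lists were chosen with earlier results of these data known, and no test was made.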

Additional observations from a re-analysis of the deposited data

How the results depend on the processing

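Of 138 alternative values of 51 results, 135 stayed within the 95% Clopper-Pearson interval of the main share, which covers counting error only, or within 1.5 times the main count. In 8 of the 12 pairs of locus and cell type all ends had the same call, so 88 of these values had little or no room to move and say nothing of stability. Of the other 50, 47 stayed within the limits, but some of these could also hardly move. The shortest run touching a window had 6 ends, and each locus listed only 1 end with repeated outer bases. The interval also treats ends as independent although neighbors share a domain, so these counts do not measure stability. Counted in base pairs, the share in PADs in *Tcra* was 11.5% in ESCs and 3.16% in NPCs, since this weighs the V region with its sparse ends by length. With the limits set from the first to the last segment, the share in *Tcrg* in NPCs was 100%, since the NPC non-PAD lies outside the segments. Borders at the outer ends, runs of under 5 ends absorbed, ends with repeated outer bases left out, every second end, gaps over 100 kb left out, segments placed by overlap or 5′ end, and pseudogene segments or NPCs left out moved no other value past these limits. No paired analysis was possible because the calls hold 1 column per cell type, so no replicate could be left out either. Depth and the agreement of replicates were not measured here.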
